A study of Mus musculus with 2 samples.

Results

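The glutathione peroxidases are 6 genes here, Gpx1, Gpx2, Gpx3, Gpx4, Gpx7 and Gpx8, out of 32883 features counted in each library. The feature table holds 8 genes with a Gpx symbol, and the other two, Gpx5 and Gpx6, had 0 UMIs (unique molecular identifiers, the unit of counting) in both libraries. The genes were chosen by their symbols, with earlier values of the same sham to HIR contrast in view, in particular the Gpx2 level of endothelial cells. Every level and ratio below is therefore a description, and none is tested.

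The study sequenced RNA of single lung cells in droplets. There were 2 libraries, 1 from a wild-type mouse group after sham surgery and 1 from a wild-type group 6 hours after hepatic ischemia-reperfusion (HIR), an operation that stops and then restores the blood flow of the liver. Lungs had been digested with collagenase, elastase and DNase and cleared of red cells by lysis. Strain, age, sex, the length of ischemia and the number of animals behind a library are not stated in the labels, and with 1 library per group no difference has a replicate check. The labels give mouse as the organism, while every feature carries a rat gene identifier, so the symbols below are those of the rat feature table. Intervals are exact 95% intervals that cover counting error only.

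Glutathione peroxidases reduce hydrogen peroxide and organic hydroperoxides to water and alcohols with electrons from glutathione. Gpx1 to Gpx4 carry selenocysteine at the catalytic site, an amino acid inserted at a UGA codon that otherwise ends translation, and Gpx7 and Gpx8 carry cysteine there. Gpx1 is the widespread cytosolic and mitochondrial enzyme, Gpx2 an epithelial enzyme best known from the gut, Gpx3 a secreted enzyme of plasma and extracellular fluid, and Gpx4 the enzyme that reduces lipid hydroperoxides within membranes and holds back ferroptosis. Gpx7 and Gpx8 are proteins of the endoplasmic reticulum that act in oxidative protein folding and have little classical glutathione peroxidase activity.

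The codon that divides the family is given here with 15 bases on either side, because it is the feature by which the members are grouped as selenium-dependent or cysteine enzymes. The sequences are mouse, GRCm38, 5′ to 3′ on the coding strand, cut from the GENCODE vM21 transcripts, and the capitals mark the catalytic codon. In Gpx1 to Gpx4 this TGA is annotated as selenocysteine and is the 1 TGA within the reading frame. In Gpx7 and Gpx8 the codon is the one that aligns with the TGA of Gpx1. Rat sequences were not used here.
Gpx1 (chr9:108339436-108339468, + strand, exon 1 of 2, codon 47 of 201): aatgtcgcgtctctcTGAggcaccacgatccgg
Gpx2 (chr12:76795241-76795273, − strand, exon 1 of 2, codon 40 of 190): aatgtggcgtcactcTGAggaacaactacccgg
Gpx3 (chr11:54907241-54907273, + strand, exon 2 of 5, codon 73 of 226): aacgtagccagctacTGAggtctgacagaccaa
Gpx4 (chr10:80054722-80054754, + strand, exon 3 of 7, codon 73 of 197): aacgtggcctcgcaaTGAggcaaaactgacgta
Gpx7 (chr4:108403415-108403447, − strand, exon 2 of 3, codon 56 of 186): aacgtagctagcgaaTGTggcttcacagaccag
Gpx8 (chr13:113045646-113045678, − strand, exon 2 of 3, codon 79 of 209): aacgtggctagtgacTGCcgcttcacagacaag

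The sham library held 10719 barcodes and 59566745 UMIs and the HIR library 9499 barcodes and 50801778 UMIs, with medians of 3426 and 3094 UMIs per barcode, and 24 barcode sequences occurred in both. After filtering, 8574 sham and 7925 HIR cells fell into 26 classes, of which 18 had at least 100 cells in each library and were compared. The members of the family were left out of the genes used for clustering. Classes were named from fixed markers and carry the suffix -like, and 2 of the 18 stayed unnamed. Cluster 4, led by Krt76, Wnt11 and Notum with Gpx3 itself among its 10 leading genes, is set beside the stromal classes because it was low in the leukocyte gene Ptprc (5.65 CPM). Cluster 15 was an immune cluster whose leading genes mixed MHC class II genes (RT1-Ba, RT1-Db1) with mast cell proteases (Mcpt1, Cma1).

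Over all kept cells, Gpx2 stood at 53.4 CPM (its UMIs scaled to a common total, as counts per 1000000 UMIs) in the sham library and 94.7 CPM in the HIR library, and the share of cells with at least 1 Gpx2 UMI was 5.96% and 14.4%. Gpx3 stood at 489 and 768 CPM, and its share of cells was 33.1% and 33.6%. The level of Gpx1 was 846 and 969 CPM, of Gpx4 393 and 353 CPM, of Gpx7 30.8 and 18.8 CPM, and of Gpx8 52.2 and 37.9 CPM. These totals mix the level within cells with the share of each cell class, so the rest of the text goes by class. UMIs were summed over the cells of a class and divided by all UMIs of that class, and levels of different genes are not set against each other because gene length and capture differ.

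A pair of member and class counted as measured when it reached 20 CPM in the sham or HIR library and 20 UMIs in both together, and 70 pairs did. Only 10 of these differed by 2-fold or more, and all 10 were higher in the HIR library: 4 for Gpx2 and 6 for Gpx3. The remaining members, Gpx1, Gpx4, Gpx7 and Gpx8, had none. With the same minimum, 1 pair was at least 2-fold lower in each of 3 alternative settings. It was Gpx4 in nonclassical monocyte-like cells with a stricter cell filter (0.481), Gpx4 in classical monocyte-like cells with mitochondrial, ribosomal and hemoglobin genes left out of the total (0.499), and Gpx3 in cluster 15 with the mean of each cell's CPM (0.324). Just inside the threshold was Gpx3 in B cell-like cells with a ratio of 2.11, and just outside it Gpx3 in general capillary cells with 1.93.

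The members' counts were read against all genes of the same class that passed the same minimum. In the 8 classes that held a pair above 2-fold, the share of all genes at least 2-fold higher in the HIR library was 1.51% in general capillary, 2.67% in aerocyte and 2.7% in venous endothelium-like cells. It was 8.44% in alveolar fibroblast-like cells, 2.38% in cluster 4, 1.51% in smooth muscle or myofibroblast-like cells, 0.826% in B cell-like cells and 5.16% in nonclassical monocyte-like cells. Counted either way, the shares in these 8 classes were 2.89%, 4.03%, 5.54%, 13.4%, 4.69%, 2.66%, 1.53% and 12.6%, in the same order. In the other 10 classes, where no member reached 2-fold, the share either way was 22.6% in neutrophil-like, 12.8% in classical monocyte-like, 0.718% in alveolar macrophage-like, 5.01% in interstitial macrophage-like, 4.78% in cluster 15, 1.74% in T cell-like, 7.81% in NK cell-like, 8.62% in adventitial fibroblast-like, 9.37% in alveolar type 1-like and 2.57% in alveolar type 2-like cells.

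**Figure D1:**
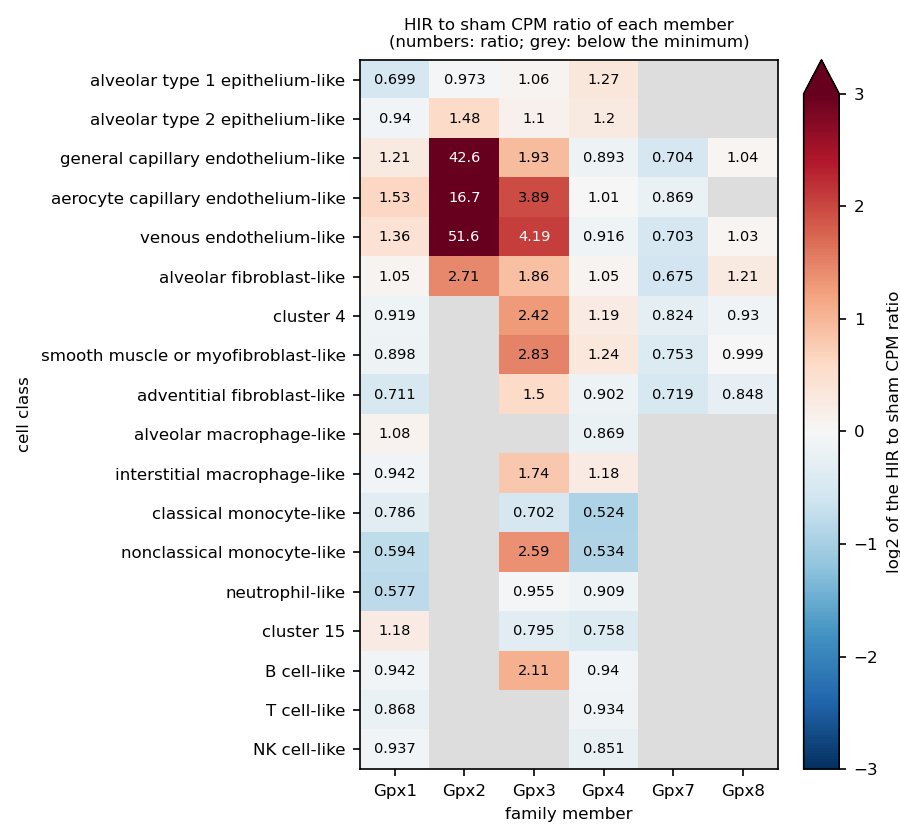
Ratio of the CPM level in the HIR library to that in the sham library for each member (columns) in each of the 18 compared classes (rows), printed in the cell and coloured on a log2 scale; grey cells had under 20 CPM in both libraries or under 20 UMIs over both. The dark red cells are Gpx2 in the 3 endothelial classes (16.7 to 51.6), Gpx3 is above 1 in 12 of 15 classes, and all 7 Gpx7 ratios are below 1.

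Gpx2 was highest in epithelial cells in the sham library and in epithelial and general capillary cells in the HIR library. The other endothelial classes are given below beside the level that RNA of other cells could bring. In alveolar type 1 epithelium-like cells, the thin cells that cover most of the alveolar surface, it stood at 993 CPM in sham and 966 CPM in HIR, a ratio of 0.973 (interval 0.870 to 1.09). In alveolar type 2 epithelium-like cells, which make surfactant, the level was 230 and 340 CPM (ratio 1.48, interval 1.35 to 1.62). Club cell-like cells of the airways, too few to be compared, were at 453 CPM (53 cells) and 517 CPM (66 cells). The interval for type 1-like cells included 1, and that for type 2-like cells did not.

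General capillary endothelium-like cells had 32 Gpx2 UMIs in 1371 sham cells and 1013 Gpx2 UMIs in 1176 HIR cells. This is 7.31 CPM (5.00 to 10.3) in sham and 312 CPM (293 to 332) in HIR, a ratio of 42.6 (30.0 to 62.7). At 312 CPM the HIR level overlapped that of type 2-like cells in the same library. A Gpx2 UMI was seen in 2.33% of sham and 39.0% of HIR general capillary cells, at median depths of 2757 and 2438 UMIs. After each cell was thinned to 1000 UMIs the shares were 0.519% and 22.8%.

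The distribution over single cells also differed between the libraries. None of the 32 positive sham cells had more than 1 Gpx2 UMI. In the HIR library 204 cells had 1, 122 had 2, 112 had 3 to 5 and 21 had 6 to 10, and 717 cells had none. Among type 1-like cells of the same library, 34 cells had 6 to 26 Gpx2 UMIs.

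Lymphocytes, which are not known for Gpx2, were taken as a reference for free RNA in the suspension, although B and T cell-like cells gave no single value. In B cell-like cells Gpx2 stood at 1.59 CPM in sham and 6.29 CPM in HIR, with 0.375% and 1.32% of cells positive at median depths of 2100 and 2466 UMIs. T cell-like cells were at 0.483 and 0.721 CPM, from 1 UMI in each library, with 0.271% and 0.397% of cells positive at 5421 and 5350 UMIs. The HIR endothelial levels were far above these, and the sham general capillary level of 7.31 CPM was above the sham B cell level (0.329 to 4.65 CPM) without overlap.

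Both clusters that made up the general capillary class had the difference. Cluster 2, led by Gja4 and Gpihbp1, was at 7.33 CPM in sham and 282 CPM in HIR (ratio 38.4, interval 24.6 to 63.6). Cluster 3, led by Glp1r and Aplnr, was at 7.28 and 338 CPM (ratio 46.4, interval 26.4 to 90.4). Over all cell filters, scalings and class definitions tried, the ratio for the class lay between 36.2 and 60.7.

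In aerocyte capillary endothelium-like cells, the large capillary cells that lie against type 1 cells, Gpx2 was at 12.01 CPM (33 UMIs in 529 cells) in sham and 201 CPM (432 UMIs in 483 cells) in HIR, a ratio of 16.7 (11.7 to 24.6). The 2 clusters of this class differed. Cluster 10 had 12.04 CPM in sham and 42.3 CPM in HIR (10 and 31 UMIs, ratio 3.51, interval 1.68 to 8.03). Cluster 27 had 11.99 and 283 CPM (23 and 401 UMIs, ratio 23.6, interval 15.5 to 37.7).

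Cluster 27 also stood apart in other ways. Its mean log2 fold over the markers was higher for general capillary endothelium (2.06) than for aerocyte endothelium (1.64). Cluster 27 got the aerocyte name through 3 aerocyte markers among its 10 leading genes. Its cells had a median of 7237 UMIs in sham and 6312 in HIR, against 2493 and 2380 in cluster 10. Its median doublet score was 0.0434 and 0.0468, against 0.0176 and 0.0174 over all kept cells and 0.00516 and 0.00579 in cluster 10. It held the general capillary markers Plvap at 5391 and 3683 CPM and Aplnr at 281 and 343 CPM, against 618 and 270 CPM and 10.8 and 8.18 CPM in cluster 10. The part of these markers in the aerocyte ratio was not tested, and the ratio in cluster 10 alone, where they were low, was 3.51.

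Venous endothelium-like cells had 2 Gpx2 UMIs in 183 sham cells and 129 UMIs in 243 HIR cells. The levels were 1.40 CPM (0.170 to 5.08) and 72.6 CPM (60.6 to 86.2), a ratio of 51.6 (14.0 to 431) whose width comes from the 2 sham UMIs. The share of positive cells was 1.09% and 25.5%, and 0.556% and 7.59% after thinning. In the order of HIR levels over the 18 compared classes, type 1-like cells came first, type 2-like and general capillary cells followed with overlapping intervals, and then aerocyte, venous and alveolar fibroblast-like cells without overlap between neighbours. Of the classes too small to be compared, club cell-like cells (478 to 559 CPM) lay between type 1- and type 2-like cells.

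**Figure D2:**
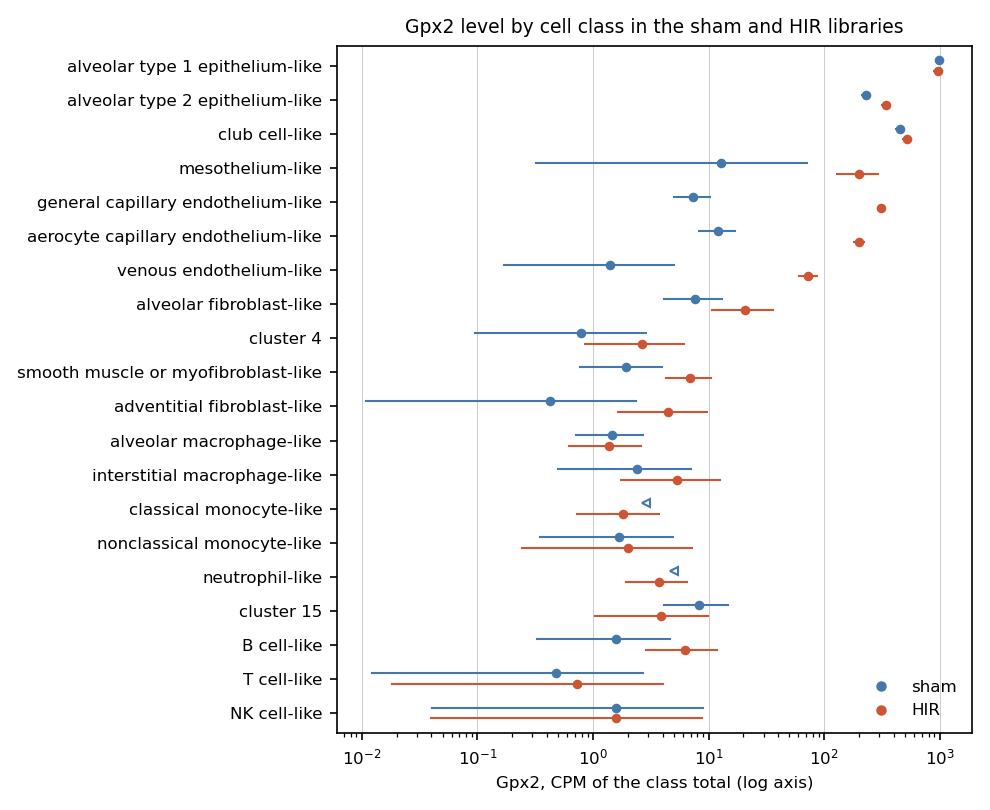
Gpx2 level in CPM (log axis) in the 18 compared classes and in club cell-like and mesothelium-like cells, in the sham (blue) and HIR (red) libraries; points are the level of the summed class, bars the exact 95% Poisson interval, and open triangles mark the upper limit where no UMI was counted. Type 1-like cells sit at 993 and 966 CPM in the 2 libraries, whereas general capillary cells move from 7.31 to 312 CPM.

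Type 1 epithelial RNA was checked as a source of the Gpx2 UMIs in endothelial cells. Capillary and type 1 cells share a basement membrane and can stay attached after digestion, and type 1-like cells had the most Gpx2. Each of 7 type 1 markers in endothelial cells was taken in turn as if all of it had come from type 1 cells, and the Gpx2 that would have come with it was computed from type 1-like cells of the same library. Hopx stood apart from the other markers, with 534 and 1073 CPM in the general capillary class and 2351 and 3800 CPM in the aerocyte class, so values without it were added after the data were seen.

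In general capillary cells of the HIR library, the 6 remaining markers (Ager, Rtkn2, Aqp5, Akap5, Cldn18 and Krt7) gave between 1.74 and 7.58 CPM of Gpx2, with a median of 3.14 CPM. The largest of these is 2.43% of the 312 CPM measured. With Hopx counted the largest value was 66.1 CPM, or 21.2% of the level. Type 2 RNA, from 7 surfactant and lamellar body markers, gave at most 2.57 CPM. In the sham library the same 6 type 1 markers gave 1.19 to 5.04 CPM, up to 68.9% of the 7.31 CPM measured, and Hopx gave 39.6 CPM, above it.

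Cells without any UMI of the 6 markers were then taken alone. In the general capillary class they numbered 1180 in sham and 969 in HIR, and Gpx2 stood at 6.19 and 320 CPM in them (ratio 51.7, interval 33.9 to 83.0). Cells that did hold a type 1 marker UMI, 191 and 207 in number, were at 12.2 and 285 CPM. With Hopx among the markers the levels in marker-free cells were 6.77 and 284 CPM (ratio 42.0, interval 19.8 to 107).

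Type 1 markers were higher in aerocyte-like cells of the HIR library. Of the type 1 markers, 10 passed the minimum in this class, 7 were at least 2-fold higher in HIR and none was 2-fold lower, with Ager at 146 and 625 CPM. In general capillary cells 1 of 4 measured markers, Hopx, was 2-fold higher, against 1.51% of all genes, and Ager was at 50.3 and 73.3 CPM. The 6 markers gave 36.1 to 66.9 CPM of Gpx2 in HIR aerocyte-like cells, up to 33.3% of the 201 CPM measured, and Hopx gave 234 CPM, above it. In marker-free aerocyte-like cells (406 and 310 cells) Gpx2 was at 2.80 and 88.2 CPM, from 5 and 91 UMIs (ratio 31.5, interval 13.01 to 99.3). Most of these HIR UMIs, 82, lay in 75 cells of cluster 27, and 9 lay in 235 cells of cluster 10. The ratio in marker-free cells was 88.7 in cluster 27 (interval 23.8 to 745) and 3.95 in cluster 10.

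General capillary RNA was another possible source for the aerocyte and venous classes, since its own Gpx2 level was high in HIR. For cluster 27 of the HIR library, 5 general capillary markers gave 149 to 355 CPM of Gpx2, a range that holds the 283 CPM measured. For cluster 10 the markers Aplnr, Kit, Plvap and Gpihbp1 gave 4.73, 5.30, 12.4 and 20.1 CPM against 42.3 CPM measured, and Sema3c, which cluster 10 held at 281 CPM, gave 175 CPM. Its type 1 markers gave 4.34 to 17.1 CPM. In marker-free cells of cluster 10, Gpx2 was at 4.31 and 17.0 CPM from 3 and 9 UMIs, and the interval of their ratio (0.985 to 22.7) included 1.

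For venous cells of the HIR library, type 1 markers gave at most 2.59 CPM and type 2 markers at most 2.06 CPM of the 72.6 CPM measured. The 5 general capillary markers gave 47.7 to 137 CPM, again a range that holds the measured level, with a median of 85.9 CPM. The largest value came from Plvap, which venous cells are known to express themselves. How much of the venous level came from general capillary cells was not tested. Without Hopx, the HIR levels of all 3 endothelial classes were above every carried level from type 1 and type 2 markers. In general capillary cells this also held with Hopx counted. For that class only epithelial sources were computed, so the 3 classes cannot be compared on general capillary RNA.

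**Figure D3:**
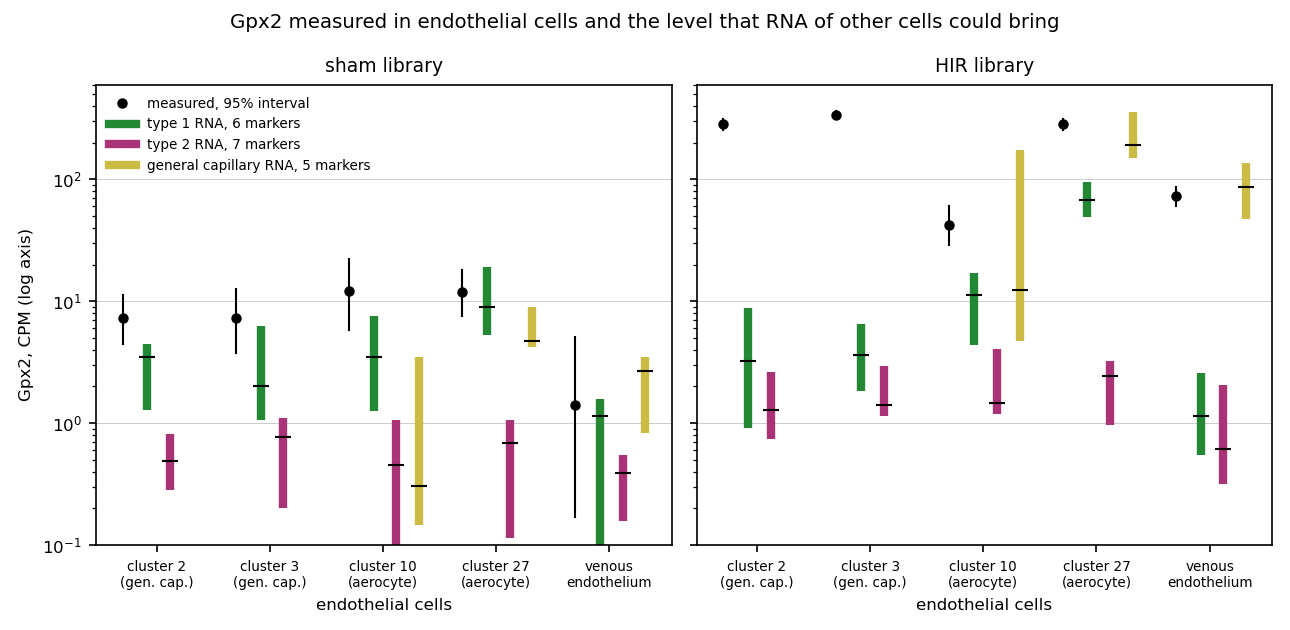
Gpx2 level measured in endothelial clusters (black points with exact 95% Poisson intervals) and the level that RNA of type 1 epithelium (green), type 2 epithelium (purple) or general capillary cells (yellow) could bring, in the sham (left) and HIR (right) libraries, in CPM on a log axis that starts at 0.1. Coloured bars run from the smallest to the largest value over the markers, with Hopx left out of the type 1 markers and a tick at the median. The HIR levels of clusters 2 and 3 (282 and 338 CPM) lie far above the green bars. Those of clusters 10 and 27 and of venous cells lie within the yellow bars. General capillary RNA was not computed as a source for clusters 2 and 3.

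In the compared classes outside endothelium and epithelium Gpx2 was at most 20.9 CPM. Alveolar fibroblast-like cells had 13 UMIs (7.69 CPM) in sham and 12 UMIs (20.9 CPM) in HIR, a ratio of 2.71 (1.13 to 6.45). Type 1 markers gave up to 13.03 CPM of the HIR level, and fibroblasts with no UMI of those markers held 2 Gpx2 UMIs in each library (1.48 and 4.98 CPM). Alveolar macrophage-like cells were at 1.48 and 1.37 CPM, near the lymphocyte level. Mesothelium-like cells, in a cluster of few UMIs per cell, were too few to be compared and had 1 UMI in 87 sham cells and 26 UMIs in 92 HIR cells. Their levels were 12.8 CPM (0.324 to 71.2) and 199 CPM (130 to 292), and the HIR level overlapped that of aerocyte-like cells. The mean log2 fold of this cluster was 2.75 over mesothelium markers and 1.37 over general capillary markers. The part of general capillary RNA in its Gpx2 level was not tested.

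Gpx3, the secreted member, was a stromal gene in both libraries and was higher in the HIR library in all 3 named stromal classes compared and in cluster 4. Alveolar fibroblast-like cells, the lipid-rich fibroblasts of the alveolar wall, had the highest level, 4425 CPM in sham and 8243 CPM in HIR (ratio 1.86, interval 1.80 to 1.93). Cluster 4 followed with 2896 and 7010 CPM (ratio 2.42, interval 2.35 to 2.49). A Gpx3 UMI was seen in 99.1% and 99.2% of alveolar fibroblast-like cells and in 99.0% and 99.8% of cluster 4 cells. After thinning to 1000 UMIs the shares were 98.2% and 99.2% in alveolar fibroblast-like cells and 89.7% and 99.5% in cluster 4.

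Smooth muscle or myofibroblast-like cells stood at 985 and 2782 CPM (ratio 2.83, interval 2.72 to 2.94). Their 3 clusters differed widely in level and all were above 2-fold. Cluster 5 was at 2162 and 5287 CPM (2.45), cluster 8 at 84.6 and 173 CPM (2.04) and cluster 19 at 514 and 1464 CPM (2.85). Adventitial fibroblast-like cells, which sheathe vessels and airways, were at 1404 and 2101 CPM (ratio 1.496, interval 1.42 to 1.57). The order of adventitial and smooth muscle-like cells was reversed between the libraries, with intervals that did not overlap in either.

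The Gpx3 ratio of the smooth muscle class moved with the setting. It was at least 2-fold in 6 of 11 settings and ranged from 1.52 to 3.39; the cause of this spread was not tested. Cluster 4 was above 2-fold in all 10 settings that could be computed, from 2.29 to 2.49. Few pericyte-like cells were recovered (59 and 17), with Gpx3 at 657 and 1263 CPM.

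Endothelial cells held far less Gpx3. Aerocyte-like cells were at 55.3 and 215 CPM (ratio 3.89, interval 3.24 to 4.71), venous cells at 11.9 and 50.1 CPM (4.19, interval 2.48 to 7.51) and general capillary cells at 26.97 and 52.0 CPM (1.93, interval 1.52 to 2.46). Within aerocyte-like cells, cluster 10 was at 57.8 and 138 CPM (2.38) and cluster 27 at 54.2 and 256 CPM (4.71). A Gpx3 UMI was seen in 18.3% and 34.0% of aerocyte-like cells, against 4.34% and 5.95% of T cell-like cells.

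The named stromal classes with cluster 4 together had 2124 CPM of Gpx3 in sham and 4242 CPM in HIR. From 5 stromal markers (Dcn, Lum, Col1a1, Col3a1 and Mfap4), the median level carried into other cells was computed. In venous cells it was 6.03 and 45.7 CPM, against 11.9 and 50.1 CPM measured. For aerocyte-like cells it was 17.0 and 70.3 CPM against 55.3 and 215 CPM, and for general capillary cells 12.1 and 20.8 CPM against 26.97 and 52.0 CPM. For general capillary cells the largest value, from Mfap4, was 45.6 and 166 CPM, above the measured level in both libraries. For venous cells it was 26.3 and 76.0 CPM, from Col3a1, also above the measured level in both. Mfap4 gave 39.1 CPM in sham aerocyte-like cells, below the measured level, and 586 CPM in HIR, above it.

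In other classes the median carried level was not always higher in HIR. It was 24.5 and 17.3 CPM in neutrophil-like cells and 15.03 and 9.86 CPM in classical monocyte-like cells, where Gpx3 itself was at 31.4 and 30.0 CPM and at 22.0 and 15.5 CPM. In B cell-like cells Gpx3 was at 13.3 and 27.9 CPM (ratio 2.11, interval 1.25 to 3.62) with a median of 10.9 and 17.8 CPM from stromal markers. In nonclassical monocyte-like cells it was at 12.4 and 32.0 CPM (2.59, interval 1.46 to 4.68) with 6.30 and 20.5 CPM from the markers. The largest value over the markers was 19.0 and 32.4 CPM in B cell-like cells and 17.3 and 90.1 CPM in nonclassical monocyte-like cells. These values were above the measured levels in both libraries. Both pairs passed the 2-fold threshold, and the part of stromal RNA in them was not tested. Interstitial macrophage-like cells stood higher, at 60.2 and 105 CPM (1.74, interval 1.27 to 2.38) with a median of 15.3 and 40.8 CPM from the markers. The largest value there was 86.3 CPM in sham, above the measured level, and 96.2 CPM in HIR, below it. For type 1-like cells the median was 29.5 and 57.2 CPM and the largest value 246 and 444 CPM. For type 2-like cells the median was 11.5 and 11.4 CPM and the largest value 29.3 and 31.5 CPM. In both epithelial classes the largest value was above the measured level in both libraries. Type 1-like cells were at 159 and 168 CPM, a ratio of 1.06 (0.798 to 1.40), and type 2-like cells at 19.1 and 21.0 CPM, a ratio of 1.10 (0.766 to 1.57). These ratios moved past 2-fold in some settings, to as much as 3.68 and 4.15, and that of classical monocyte-like cells moved from 0.702 to 2.99 with doublets kept.

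**Figure D4:**
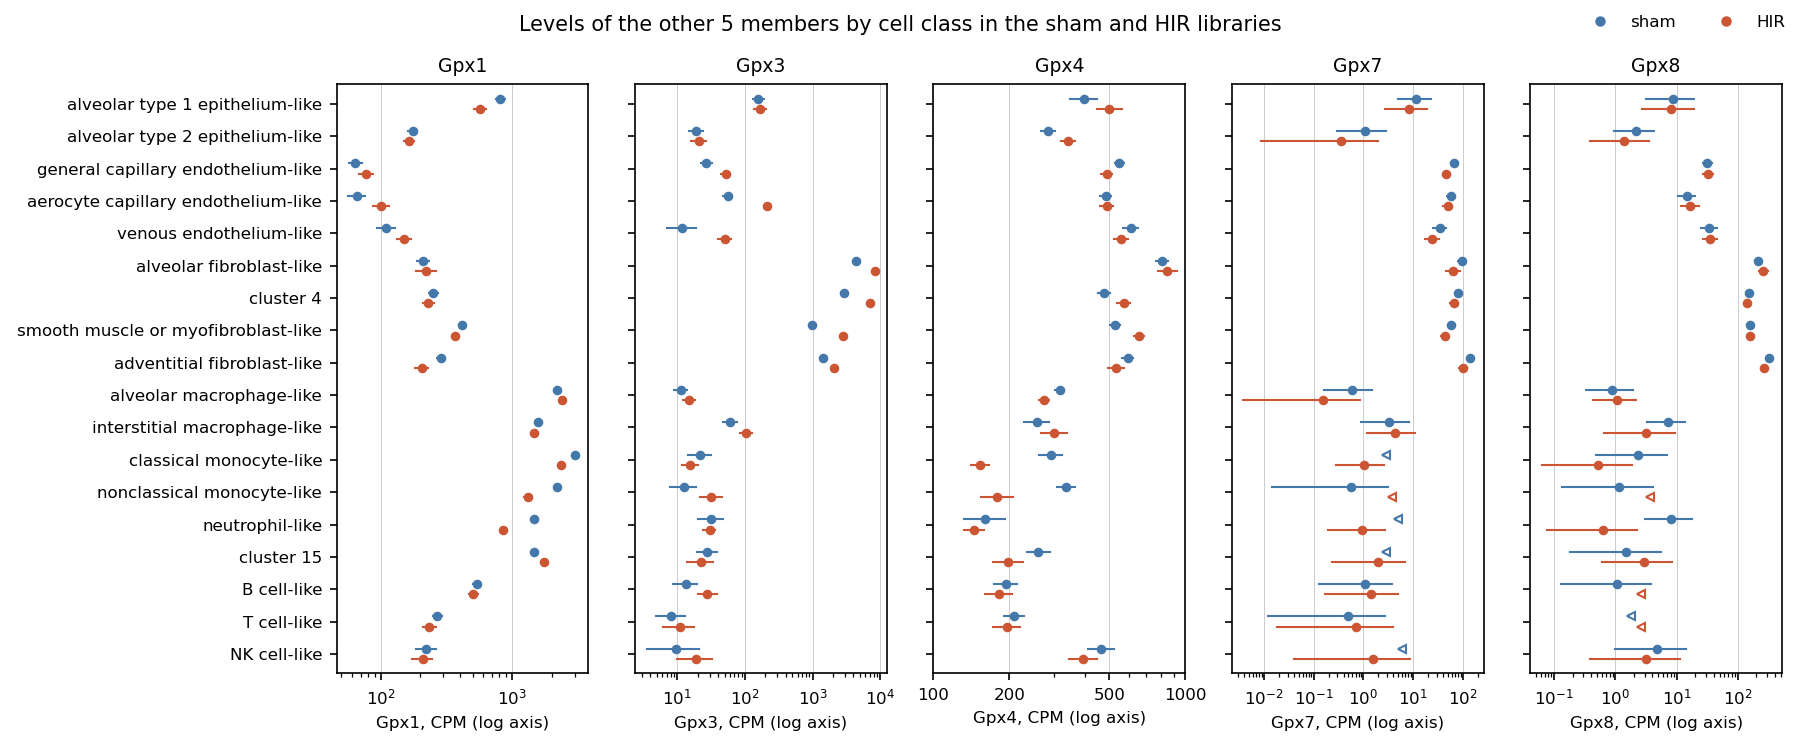
Levels of Gpx1, Gpx3, Gpx4, Gpx7 and Gpx8 in CPM (log axes with different ranges) in the 18 compared classes, in the sham (blue) and HIR (red) libraries; points are the level of the summed class, bars the exact 95% Poisson interval, and open triangles the upper limit where no UMI was counted. Gpx1 is highest in myeloid classes, Gpx3, Gpx7 and Gpx8 in stromal classes, and Gpx4 spans a narrow range from 145 to 850 CPM.

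Gpx1, the cytosolic enzyme, was a myeloid gene. Classical monocyte-like cells had the highest sham level, 3028 CPM, and were at 2381 CPM in HIR (ratio 0.786, interval 0.757 to 0.817). Alveolar macrophage-like cells, which patrol the airspace, were at 2203 and 2384 CPM (1.08, interval 1.06 to 1.11). In the HIR library these 2 classes shared the top with overlapping intervals. Every classical monocyte-like cell in both libraries had a Gpx1 UMI.

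Nonclassical monocyte-like cells, the patrolling monocytes of the capillary bed, stood level with alveolar macrophages in sham, at 2206 CPM, but at 1311 CPM in HIR (ratio 0.594, interval 0.558 to 0.633). After thinning, 85.4% of these sham cells and 64.0% of the HIR cells had a Gpx1 UMI. Interstitial macrophage-like cells were at 1565 and 1475 CPM (0.942, interval 0.879 to 1.01) and cluster 15 at 1481 and 1746 CPM (1.18, interval 1.11 to 1.26).

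Neutrophil-like cells had the lowest ratio of Gpx1, 0.577 (0.537 to 0.619), with 1477 CPM in sham and 851 CPM in HIR. This class was made up differently in the libraries. Cluster 6 held 337 sham and 799 HIR cells and was at 1754 and 910 CPM (0.519). Cluster 26 held 40 sham and 479 HIR cells and was at 864 and 803 CPM (0.929, interval 0.7996 to 1.08). In this class 22.6% of all genes were past 2-fold, and a scaling by the median ratio of genes moved all log2 ratios by 0.18.

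Epithelial and stromal cells had less Gpx1. Type 1-like cells were at 814 and 569 CPM (ratio 0.699, interval 0.609 to 0.8005) and adventitial fibroblast-like cells at 287 and 204 CPM (0.711, interval 0.616 to 0.820). Capillary endothelium was lowest in both libraries. General capillary cells were at 64.0 and 77.6 CPM (1.21, interval 1.02 to 1.44), aerocyte-like cells at 65.5 and 100.5 CPM (1.53, interval 1.25 to 1.88) and venous cells at 110 and 150 CPM (1.36, interval 1.11 to 1.67). Within aerocyte-like cells the direction differed between clusters, with 75.8 and 60.0 CPM in cluster 10 and 61.0 and 121 CPM in cluster 27.

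Over the 18 classes, Gpx1 ratios ran from 0.577 to 1.53, with 6 above and 12 below 1. The counting interval lay wholly above 1 in 5 classes and wholly below 1 in 7. Erythroid-like cells, not compared because only 45 were found in HIR, were at 1770 and 1956 CPM.

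Gpx4, the membrane lipid hydroperoxide reductase, was the most evenly spread member. Alveolar fibroblast-like cells had the highest level in both libraries, 808 and 850 CPM (ratio 1.05, interval 0.947 to 1.17), and neutrophil-like cells the lowest, 160 and 145 CPM. The capillary classes stood at 546 and 488 CPM (general capillary, 0.893, interval 0.838 to 0.952) and 482 and 488 CPM (aerocyte-like, 1.01, interval 0.932 to 1.10). In contrast to Gpx2, no endothelial class had a Gpx4 ratio beyond 1.12-fold either way.

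The monocytes had the lowest Gpx4 ratios. Classical monocyte-like cells were at 292 and 153 CPM (0.524, interval 0.459 to 0.598) and nonclassical monocyte-like cells at 336 and 179 CPM (0.534, interval 0.449 to 0.632), both just within 2-fold. The share of classical monocyte-like cells with a Gpx4 UMI was 90.1% and 70.9% although the HIR cells were deeper (medians of 7570 and 10494 UMIs). After thinning it was 24.8% and 14.0%. Alveolar macrophage-like cells were at 317 and 275 CPM (0.869, interval 0.816 to 0.926).

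Several classes were slightly higher in HIR. Type 1-like cells were at 395 and 500 CPM (1.27, interval 1.07 to 1.497), smooth muscle or myofibroblast-like cells at 527 and 655 CPM (1.24, interval 1.17 to 1.32), type 2-like cells at 285 and 342 CPM (1.20, interval 1.10 to 1.31) and cluster 4 at 477 and 570 CPM (1.19, interval 1.10 to 1.30). Over the 18 classes 7 ratios were above and 11 below 1, with the interval wholly above 1 in 4 and wholly below in 6.

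Gpx7 and Gpx8, the 2 cysteine members of the endoplasmic reticulum, were confined to stromal and endothelial cells among the classes that passed the minimum. Adventitial fibroblast-like cells had the highest Gpx7 level, 138 CPM in sham and 99.1 CPM in HIR (ratio 0.719, interval 0.583 to 0.883). Alveolar fibroblast-like cells were at 95.2 and 64.3 CPM (0.675, interval 0.459 to 0.970), cluster 4 at 81.4 and 67.1 CPM (0.824, interval 0.655 to 1.03) and smooth muscle or myofibroblast-like cells at 58.2 and 43.8 CPM (0.753, interval 0.604 to 0.937). General capillary cells were at 65.6 and 46.2 CPM (0.704, interval 0.574 to 0.861). All 7 measured Gpx7 ratios were below 1, from 0.675 to 0.869, and the interval lay wholly below 1 in 4.

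Gpx8 was highest in the same adventitial fibroblast-like cells, at 317 and 269 CPM (ratio 0.848, interval 0.745 to 0.963). Alveolar fibroblast-like cells were at 215 and 261 CPM (1.21, interval 0.995 to 1.47), so these classes were separated in sham and overlapped in HIR. Smooth muscle or myofibroblast-like cells were at 159 and 158 CPM and cluster 4 at 151 and 140 CPM. The endothelial level was lower, with general capillary cells at 31.8 and 32.9 CPM and venous cells at 33.7 and 34.9 CPM. All 6 Gpx8 ratios lay between 0.848 and 1.21, and only the adventitial interval left out 1.

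Lymphocytes and myeloid cells held almost no RNA of either gene. T cell-like cells had 1 Gpx7 UMI in each library and no Gpx8 UMI, with upper 95% limits of 1.78 and 2.66 CPM. Alveolar macrophage-like cells had 4 and 1 Gpx7 UMIs and 6 and 7 Gpx8 UMIs, among 6774928 and 6571080 UMIs of the class. Across the 36 sums of class and library, Pearson's r of log2(CPM + 10) was 0.92 between Gpx7 and Gpx8, 0.90 between Gpx3 and Gpx8 and −0.62 between Gpx1 and Gpx7. Sums of the same class in both libraries share their cell type, so these values describe the pattern and carry no test.

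The genes most like each member over the 36 sums, among 6592 genes, followed its cell classes. Gpx1 was closest to Prkcd (r = 0.88), Card9, Tnfrsf21, Aif1 and Clec12a, and Gpx2 to Rab15 (0.90), Scnn1a, Pdzk1ip1, Cldn18 and Clic3. Gpx3 was closest to Adamts15 (0.96), Adamts2, Fxyd1, Rarres2 and Col6a2, and Gpx4 to Gabarapl1 (0.92), Tmem109, Lrp5, Lman1 and Ptdss2. Gpx7 was closest to Sparcl1 (0.97), Sgce, C1qtnf2, Col5a2 and Phldb1, and Gpx8 to Col6a2 (0.98), Serping1, Nid1, Mmp2 and Bicc1. The neighbours of Gpx2 included the epithelial sodium channel subunit Scnn1a and the tight junction gene Cldn18, both of which peaked in type 1-like cells.

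Most listed genes of the wider peroxide and glutathione machinery were within 2-fold in general capillary cells, where 2.89% of all genes were past it, so nothing is read from a count of 0 in a list of this size. Of 10 measured selenoprotein genes outside the family none was past 2-fold (Selenof 605 and 532 CPM, Selenom 525 and 415 CPM, Selenok 357 and 312 CPM), nor was any of 6 measured genes of selenocysteine insertion and selenium supply. The same held for 9 genes of glutathione synthesis, reduction and supply (Slc3a2, a subunit of the cystine transporter, 608 and 809 CPM) and for 11 other peroxidase and thioredoxin genes (Txnip 1125 and 1312 CPM, Prdx1 588 and 468 CPM). The median log2 ratio, taken after 10 CPM was added, was −0.01 for the selenoproteins, −0.12 for the glutathione list and −0.30 for the peroxidase list, against −0.01 over all measured genes of the class.

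None of 7 measured NRF2 genes, the transcription factor of the antioxidant response and its targets, was past 2-fold in general capillary cells (median 0.10), with Nfe2l2 itself at 87.5 and 95.1 CPM. Among 7 glutathione S-transferase genes Gstt2 was higher, at 21.7 and 54.8 CPM (ratio 2.52, interval 1.96 to 3.27). Of 6 genes for superoxide sources and dismutases Xdh, which encodes xanthine oxidase, was higher, at 38.2 and 205 CPM (5.36, interval 4.52 to 6.40). Of 10 lipid peroxidation and ferroptosis genes Alox15 was lower, at 22.9 and 7.39 CPM (0.323, interval 0.198 to 0.509). Alox15 was also among the 10 leading genes of erythroid-like cells, of which there were 153 in sham and 45 in HIR. The part of erythroid RNA in this value was not tested. Oxidative folding genes had 9 of 10 below 1 with none past 2-fold, and Calr was at 703 and 394 CPM. The median log2 ratio over all measured genes of the class was −0.01, and nothing is read from this count.

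In aerocyte-like cells more genes of the lists were past 2-fold, as were more of all genes (4.03%). Xdh was at 93.1 and 287 CPM, Gsta4 at 30.9 and 128 CPM, Gsta1 at 9.82 and 58.2 CPM, Mgst1 at 9.82 and 41.9 CPM and Prdx6 at 254 and 513 CPM. Type 1-like cells held Gsta4 at 2232 CPM and Prdx6 at 4937 CPM in sham, and the part of type 1 RNA in these aerocyte values was not tested. All 6 measured NRF2 genes were above 1, with Mafk at 12.7 and 25.6 CPM. The median log2 ratio over all measured genes of the class was 0.004. Nothing is read from the count of 6, and the part of type 1 RNA in it was not tested.

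In type 1-like cells, where Gpx2 itself was level, 3 of 9 measured NRF2 genes were at least 2-fold higher, namely Mafk, Gclc and Aldh3a1, all under 40 CPM and from 5 to 23 UMIs in a library, against 6.32% of all genes of the class. In venous cells, whose genes were picked out after their values were seen, Xdh was at 61.1 and 251 CPM, Sod2, the mitochondrial superoxide dismutase, at 87.8 and 230 CPM, and Maoa at 20.4 and 42.2 CPM. Their Duox1 (39.3 and 1.12 CPM) and its maturation factor Duoxa1 (110 and 2.81 CPM) were lower, from 56 and 2 UMIs and from 157 and 5 UMIs.

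Where Gpx3 was highest, the same 3 genes of the lists were at least 2-fold higher in alveolar fibroblast-like cells and in cluster 4. Of all genes, 8.44% were at least 2-fold higher in alveolar fibroblast-like cells and 2.38% in cluster 4, and nothing is read from the count. Txnip, an inhibitor of thioredoxin, was at 629 and 1439 CPM in alveolar fibroblast-like cells and 811 and 1936 CPM in cluster 4. Xdh was at 67.4 and 541 CPM (ratio 8.02, interval 6.45 to 10.0) and at 88.9 and 272 CPM. Mgst2, a microsomal glutathione transferase, was at 4.73 and 34.8 CPM and at 3.56 and 22.7 CPM. The selenoprotein gene Selenom was lower, at 67.4 and 27.8 CPM and at 230 and 113 CPM. In cluster 4 the NRF2 targets Nqo1 (21.7 and 61.3 CPM) and Hmox1 (10.3 and 29.1 CPM) were higher.

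Classical monocyte-like cells, where Gpx1 peaked in sham, differed most in the oxidative folding list. Of 9 measured genes 6 were at least 2-fold higher in HIR and none lower, against 5% of all genes higher, with a median log2 ratio of 1.18 against −0.04 over all genes of the class. Hspa5, the chaperone BiP, was at 682 and 2045 CPM, Calr at 478 and 1279 CPM and Pdia4 at 25.2 and 114 CPM. Sod2 was at 746 and 3737 CPM (5.01, interval 4.69 to 5.36) and Sephs2, which makes the selenium donor for selenocysteine, at 41.7 and 118 CPM. Neutrophil markers were also higher in these cells, 4 of 7 measured by at least 2-fold, with S100a8 at 1192 and 16306 CPM, and their part in these values was not tested. Nonclassical monocyte-like cells had Hmox1 at 360 and 1350.2 CPM, Sod2 at 1170 and 4482 CPM and the catalase gene Cat at 55.7 and 24.0 CPM. In alveolar macrophage-like cells no gene of any of the 9 lists was past 2-fold, in a class where 0.718% of all genes were.

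Genes that mark other cells differed between the libraries in the classes described, and whether free RNA brought them was not tested. The neutrophil gene S100a8 was at 22.2 and 255 CPM in general capillary cells, 14.0 and 776 CPM in venous cells and 24.4 and 298 CPM in B cell-like cells. The surfactant gene Sftpb was at 61.5 and 164 CPM in general capillary cells. Neutrophil-like cells themselves held 0 Gpx2 UMIs in sham, with an upper 95% limit of 5.04 CPM, and 12 in HIR (3.75 CPM).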

How the data were processed

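The values used are the deposited UMI counts per gene and cell barcode of 2 libraries. The submitters' processing notes name mm10, STAR, Seurat 4.0 and Cell Ranger 6.0. The header of each matrix, however, gives cellranger 5.0.0 as its source, and all 32883 features carry rat identifiers. The feature identifiers are thus those of a rat reference, and how that squares with mm10 and with the mouse label is not settled. Reads of near-identical genes cannot be separated here.

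Kept barcodes had 200 or more genes and no more than 20% of UMIs from mitochondrial genes, and Scrublet's highest scores were left out at 0.8% per 1000 barcodes (scanpy 1.11.5; 919 sham and 722 HIR barcodes called). Cells were clustered on both libraries together (30 components, 15 neighbours, Leiden resolution 1.0, igraph 0.11.9) without the family and the listed genes. A cluster was named with at least 3 markers over 2-fold and a mean log2 fold of at least 0.8; candidates were ranked by that score plus 0.5 per marker among the 10 leading genes. CPM, ratios and shares have exact Poisson, conditional and binomial (Clopper-Pearson) 95% intervals, whose coverage was tested on simulated counts. UMIs within a library share 1 preparation, so these intervals understate the error of the groups. Cells were also thinned to 1000 UMIs, leaving out shallower cells. A gene was measured in a class from 20 CPM in the sham or HIR library and 20 UMIs in both together. Named are the members, their 5 nearest genes among those with at least 50 CPM in any sum, and listed genes past 2-fold or among the 3 most abundant, of which a selection is printed. Members, lists and this rule were chosen with earlier results of these data known. The naming score and the values for single clusters, for markers without Hopx and for stromal and general capillary sources were set after the data were seen.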

Additional observations from a re-analysis of the deposited data

How the results depend on the processing

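No paired analysis was possible because each group is 1 library. Of 70 pairs of member and class, 10 were past 2-fold, and 30 pairs (21 higher, 9 lower) were past it with no minimum, where pairs of a few UMIs count, against 7 with a minimum of 50 CPM. The other settings gave 9 to 14, of which 1 was lower in HIR with the stricter cell filter, the mean of each cell's CPM and the total without mitochondrial, ribosomal and hemoglobin genes. The Gpx2 ratio in general capillary cells stayed between 36.2 and 60.7 in the settings tried. In aerocyte-like cells it was 16.7, but 8.55 with the mean of each cell's CPM, 31.5 in cells with no UMI of the 6 type 1 markers (chosen after seeing the data) and 3.51 in cluster 10 alone (likewise). Of the 91 HIR UMIs behind the value of 31.5, 82 lay in cluster 27. The cause of these shifts was not tested. In cells with no UMI of all 7 type 1 markers, Hopx included, too few aerocyte-like cells remained (8 and 3) for a value. Of 10 pairs past 2-fold, 5 were so in every setting that gave a value: Gpx2 in the 3 endothelial classes and Gpx3 in cluster 4 and venous cells. Pairs within 2-fold also moved past it, with Gpx3 in type 1-like cells between 0.919 and 3.68, in type 2-like cells between 0.959 and 4.15 and in general capillary cells between 1.82 and 2.38. Gpx3 in B cell-like cells ranged from 1.54 to 11.4 and Gpx2 in alveolar fibroblast-like cells from 1.94 to 3.72. Of 652 other values under alternatives 587 moved by less than their counting interval and 65 by more, and no ratio that was past 2-fold changed direction. Depth limits Gpx2 in venous cells of the sham library (2 UMIs) and in fibroblasts (13 and 12 UMIs).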

Other observations

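Classes with fewer than 100 cells in a library were left out of the comparisons and held further members' values. Mesothelium-like cells had Gpx3 at 38.4 CPM (3 UMIs) in sham and 690.2 CPM (90 UMIs) in HIR. Lymphatic endothelium-like cells, 41 in sham and 8 in HIR, had Gpx3 at 377 and 1448 CPM. Club cell-like cells had Gpx3 at 9.33 and 244 CPM, with 22.6% and 43.9% of cells positive. Pericyte-like cells, 59 in sham and 17 in HIR, had Gpx8 at 351 and 230 CPM (63 and 12 UMIs) and Gpx7 at 33.4 and 57.4 CPM (6 and 3 UMIs). Plasmacytoid dendritic cell-like cells had Gpx1 at 1239 and 1380 CPM.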
